A study of Mus musculus with 2 samples.

Results

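The genes Myod1, Myf5, Myf6 and Myog, the 4 myogenic regulatory factors, were examined together with every peak whose summit lay inside them or within 300 kb of their spans in GRCm38. Of the 2977 peaks in the list, 7 met this rule (0.235%). Myod1 had 3 of them and Myog 1, and Myf5 and Myf6, which are neighbours, shared the other 3. The peaks came from chromatin immunoprecipitation with sequencing (ChIP-seq), in which DNA fragments bound by a protein are recovered with an antibody and counted along the genome. Muscle stem cells were sorted from untreated C57BL/6 mice with the genotype Pax7-YFP KI, a knock-in of yellow fluorescent protein at the gene for the stem cell factor PAX7. One library was recovered with an antibody against GFP (10622111 tags) and another was input DNA of the same genotype (20429667 tags). The labels do not say how YFP is joined to PAX7, how many animals were pooled or what their age was, and a control library without YFP was not analysed here. With 1 library per group there was no replicate and no test between libraries, and a peak list holds no expression values against which the labelled cell type could be checked.

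The myogenic regulatory factors are basic helix-loop-helix transcription factors that bind the E-box, CANNTG, as dimers with E proteins. MYF5 and MYOD commit cells to the muscle lineage, MRF4 (the product of Myf6) acts both in commitment and in mature fibres, and myogenin, the product of Myog, drives differentiation. In quiescent muscle stem cells PAX7 stands upstream of Myf5 and Myod1, and much of the control of both genes is known to lie in enhancers many kilobases away from them. Myog is controlled largely from its proximal promoter.

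The 3 peaks of Myod1 all lay on the same side of the gene and within 63 kb of it. The gene occupies chromosome 7, 46376474 to 46379092, and is known to be read towards higher coordinates, so the peaks were upstream of it. The nearest, at 46348843 to 46349147, had its summit 27492 bp from the gene, a pileup of 17 fragments over the summit and a fold enrichment over input of 9.10. Pileup, fold and q-value of each peak are the authors', and the 95% interval of this fold was 5.51 to 14.3 (exact Poisson interval of the pileup, counting error only). The second, at 46337598 to 46337939, had its summit at 38645 bp and was covered by 23 fragments, which gave 11.8-fold enrichment (7.64 to 17.4). The farthest, at 46313569 to 46313785, lay at 62823 bp with 18 fragments and 9.31-fold enrichment (5.72 to 14.4). The middle peak was the strongest of all 7, and the intervals of the 3 folds overlapped.

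All 3 Myod1 peaks fell into the stretch between Myod1 and Otog, the gene for the inner ear protein otogelin, with no protein-coding gene between any of them and Myod1. The stretch measured 65.0 kb, and its 3 summits spanned 35.3 kb, with steps of 24.2 and 11.2 kb. The farthest summit was 2217 bp beyond the end of Otog. The middle summit was also nearer to Otog (26395 bp) than to Myod1, while the nearest had Myod1 as its closest gene. On the other side of Myod1, the 17.1 kb up to Kcnc1, a potassium channel gene, held no summit, nor did Kcnc1, the guanine nucleotide exchange factor gene Sergef or Tph1, a gene for serotonin synthesis. The next summit on that side was 671.4 kb away, and the next beyond Otog was 658.5 kb from Myod1. The genes Ush1c, Abcc8, Kcnj11 and Nomo1 beyond Otog held none either.

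Among intervals between neighbouring protein-coding genes, 5.78% of 19637 held a summit, and 79 held 3 or more. Of the 1583 intervals of 50 to 80 kb, 5 held 3 or more summits (0.316%), and the one from Otog to Myod1 was among them. The other 4, named here after their values were seen, ran from Ntn4 to Usp44, from Asic2 to Ccl2, from E2f6 to Rock2 and from Mat2a to Sh2d6. Of all 2977 summits, 203 (6.82%) belonged to a group of at least 3 within 35.3 kb or less. In terms of genes, 3.08% of the 21770 protein-coding genes had 3 or more summits inside or within 100 kb, and 0.712% had them on 1 side alone, as Myod1 did. This is a description of the list, since Myod1 was chosen with its peaks known.

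**Figure D1:**
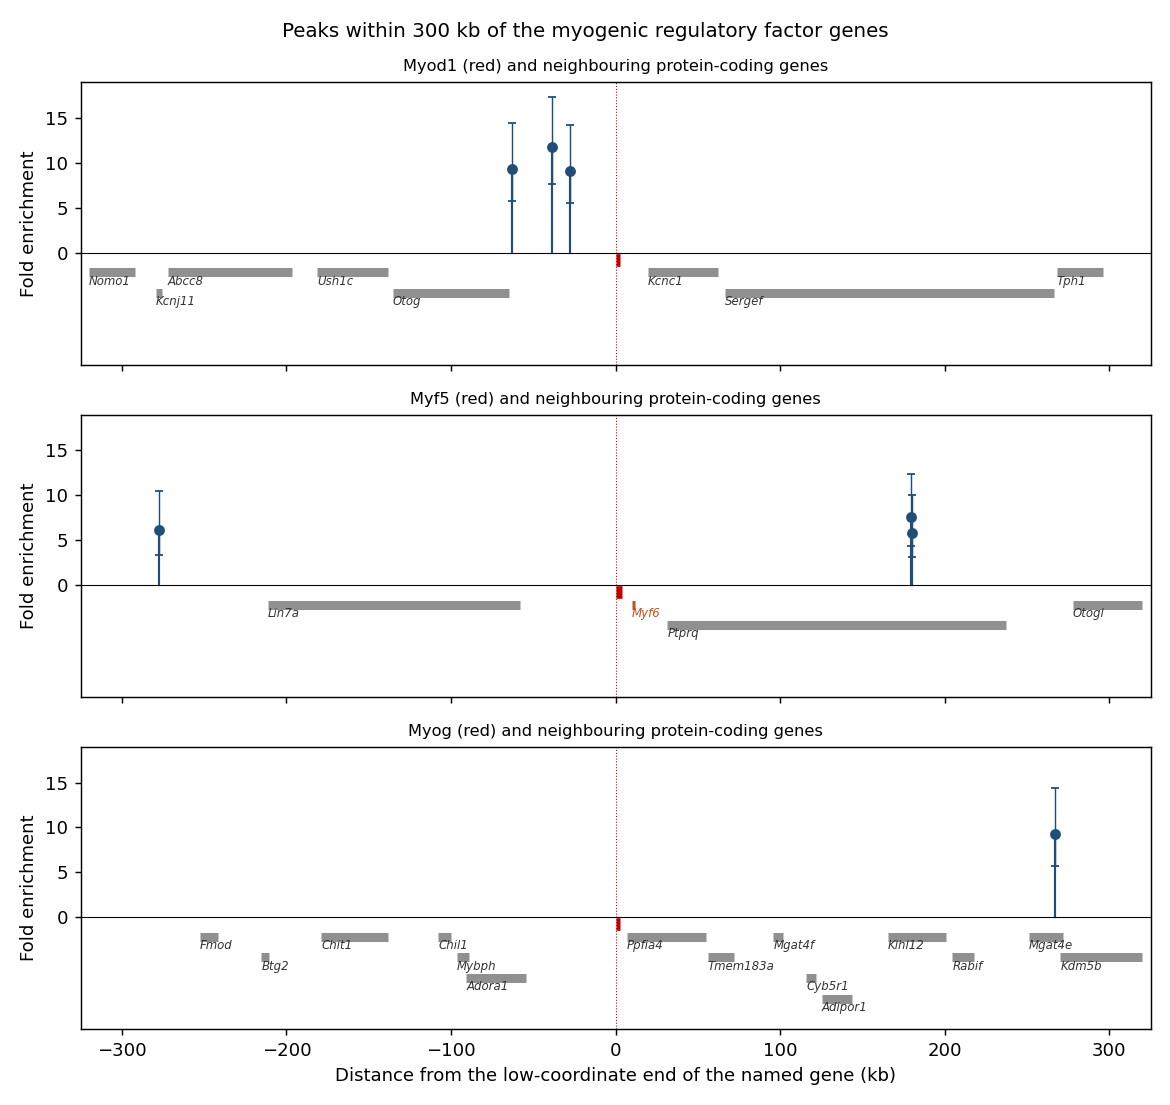
Fold enrichment (vertical axis, ratio to input) of each peak against its distance in kb from the low-coordinate end of Myod1, Myf5 and Myog, with 95% Poisson intervals of the pileup as bars and protein-coding genes drawn below. The 3 Myod1 peaks sit together between Otog and Myod1, whereas the peaks around Myf5, Myf6 and Myog sit 167.8 to 287.4 kb away from these genes.

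The known Myod1 enhancers were searched by distance. The distal regulatory region, placed 3 to 7 kb upstream, held no summit, and the nearest was 20.5 kb away from that window. The noncoding RNA Gm45923, also called Munc or DRReRNA, is transcribed from this region at chromosome 7, 46371403 to 46372492. It held no summit either, with the nearest at 22421 bp. The core enhancer, an element that drives Myod1 in myoblasts of the embryo, was placed 18 to 26 kb upstream. No summit fell into this window, but the nearest Myod1 peak missed its far edge by only 1492 bp. With the windows widened by 2 kb on each side, that peak entered. The windows were set in whole kb from textbook knowledge, so whether the peak at 27.5 kb lies beside the core enhancer or beyond it could not be resolved here. The other 2 peaks, at 38.6 and 62.8 kb, lay beyond both elements. An empty window of a few kb was the usual case. Of all protein-coding genes, 10.9% had a summit inside or within 10 kb.

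At the pair Myf5 and Myf6 the peaks were farther away and their folds lower, with intervals that overlapped those at Myod1. Myf5 lies at chromosome 10, 107482908 to 107486927, and Myf6 at 107492848 to 107494723, with 5.92 kb between them. Both are read towards lower coordinates. No summit lay between them, in the 19.6 kb from Myf6 to Ptprq or in the 57.8 kb from Myf5 to Lin7a, which encodes a scaffold protein of cell junctions. The summit-free stretch around the pair measured 457.1 kb, from 107205451 to 107662555.

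Upstream of the pair, 2 peaks lay side by side inside Ptprq, a receptor-type phosphatase gene best known from the hair cells of the inner ear. The first, at 107662397 to 107662679, was covered by 14 fragments, or 7.56-fold (4.36 to 12.3). Its summit was 175.6 kb from Myf5 and 167.8 kb from Myf6. The second, at 107662855 to 107663059, had 11 fragments and 5.79-fold enrichment (3.13 to 9.98), the lowest of the 7 peaks. Its summit was 362 bp from the first, and 175 bp separated the 2 peaks, and whether they form 1 enriched region was not tested. A neighbouring summit as close as this was found for 40 of the 2977 summits (1.34%). Ptprq extends 57.5 kb beyond the first summit, whose distance to either end of the gene exceeded 50 kb. The long noncoding RNA gene Gm36177, which begins 545 bp from Myf6, ends 3152 bp short of the first summit.

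Downstream of the pair, the single peak at 107205330 to 107205501 rested on 11 fragments and stood at 6.07-fold (3.28 to 10.5). It was 277.5 kb from Myf5 and 287.4 kb from Myf6, with Lin7a in between. With a width of 172 bp, the fragment length, it was as narrow as any peak of the list. Its summit lay inside the long noncoding RNA gene Gm29674, 248 bp from the end of the span at which its transcription starts. The ends of the nearest protein-coding genes, Lin7a and Acss3, were 66.1 and 81.7 kb away. Beyond the 300 kb limit, the next summit upstream was 651.6 kb from Myf6 and the next downstream 1908 kb from Myf5.

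None of the 4 windows for known Myf5 control elements held a summit. These were the early epaxial enhancer at 5 to 9 kb upstream of the Myf5 start site, a region at 15 to 20 kb, the limb enhancer at 46 to 60 kb and the far enhancer at 100 to 120 kb. The limb and far enhancers have both been linked to PAX7 in muscle cells. The nearest summit, the first Ptprq peak, was 56.4 kb beyond the far enhancer window and 116.4 kb beyond the limb enhancer window. Windows wider by 2 kb, or any overlap of a peak with a window, added none for Myf5. The 2 kb on either side of Myf6 were without a summit as well, and the nearest was 165.8 kb beyond them. Empty windows of 20 kb or less were the usual case in this list. Of all protein-coding genes, 10.9% had a summit inside or within 10 kb. Even of the longer intervals of 50 to 80 kb between protein-coding genes, 7.39% held a summit. Those intervals are not a like set for every window. The limb and far enhancer windows lie inside Ptprq, and the early epaxial window covers Myf6. With few windows of this size holding a summit, the absences are not read as a result particular to these elements.

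Myog had 1 peak in its window, on the far side of 7 other protein-coding genes. The gene occupies chromosome 1, 134290004 to 134292548, and is read towards higher coordinates. The peak at 134557002 to 134557220, downstream of Myog, had a pileup of 18, a fold of 9.31 (5.72 to 14.4) and a distance of 264.6 kb. Ppfia4, Tmem183a, Mgat4f, Cyb5r1, Adipor1, Klhl12 and Rabif stood in between, among them the adiponectin receptor gene Adipor1. The summit lay inside Mgat4e, 4638 bp from its nearer end, and 3070 bp before the start of Kdm5b, the gene for a demethylase of histone H3 lysine 4. The 2 kb upstream of the Myog start site, where its promoter lies, held no summit, and neither did Myoparr, a noncoding RNA gene 243 bp from Myog. Of all protein-coding genes, 10.9% had a summit inside or within 10 kb. On the upstream side no summit occurred within 300 kb. The nearest there was just outside at 336.6 kb, with 12 fragments and 6.37-fold enrichment (3.53 to 10.8).

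Promoter sequences are given for the gene starts, where no peak was called. Myf5 and Myog were matched in the RefSeq promoter table of GRCm38.p6, Myod1 and Myf6 were not. For Myf5 the start site of that table lies 793 bp inside the end of the gene span given above, so the Myf5 sequence falls within that span. The 250 bases before each start site are given 5′ to 3′ on the strand of the gene, with every CANNTG (E-box) and every TAAT, the core bound by homeodomains such as that of PAX7, in capitals. Both strands were searched, so TAAT also appears as ATTA.
Myf5, chr10:107486135-107486384, minus strand: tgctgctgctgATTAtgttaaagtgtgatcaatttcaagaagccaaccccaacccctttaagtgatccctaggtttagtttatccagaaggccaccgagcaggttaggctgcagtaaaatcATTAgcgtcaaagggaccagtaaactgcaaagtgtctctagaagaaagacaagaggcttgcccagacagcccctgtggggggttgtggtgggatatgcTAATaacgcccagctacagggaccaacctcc
Myog, chr1:134289754-134290003, plus strand: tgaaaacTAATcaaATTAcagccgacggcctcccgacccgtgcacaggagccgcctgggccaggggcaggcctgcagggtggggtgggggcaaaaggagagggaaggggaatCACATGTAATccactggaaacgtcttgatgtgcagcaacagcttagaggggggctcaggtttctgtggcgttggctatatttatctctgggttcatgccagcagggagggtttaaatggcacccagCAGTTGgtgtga

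The Myf5 sequence held no E-box and 3 homeodomain cores. The Myog sequence held 2 E-boxes, CACATG at positions −138 to −133 and CAGTTG at −12 to −7 from the start site, and 3 homeodomain cores, 1 of which followed the first E-box directly. Of 32851 promoters of the same length, 66.2% held at least 1 E-box and 54.9% at least 1 TAAT, so these letters are common. A pair of Myog cores, at −243 to −233, formed TAATCAAATTA. This is a match to TAATNNNATTA, the inverted repeat on which paired-class homeodomains can bind as dimers, and it contains 2 of the TAAT matches counted above. That arrangement was present in 152 of the promoters (0.463%). Matches are a description of letters only. Repeats with another spacing were not searched, and binding of PAX7 to this one was not tested. The nearest summit was 267.1 kb from this Myog sequence and 176.2 kb from that of Myf5, where the inverted repeat was not found.

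Ranked within the whole list, the peaks near Myod1 and Myog were above its median and those near Myf5 and Myf6 around or below it. The list had a median fold of 7.35 (quartiles 6.27 and 8.82). The strongest Myod1 peak, at −log10 q = 18.7, ranked 174 by fold, above 93.9% of the list. The peak near Myog and the farthest Myod1 peak had the same pileup and background, shared rank 553 and had −log10 q = 12.5. The nearest Myod1 peak ranked 595 with −log10 q = 11.8. The first Ptprq peak stood at rank 1379 with −log10 q = 8.40, which equals the list's median. The downstream peak in Gm29674 (−log10 q = 5.28) and the second Ptprq peak (−log10 q = 4.94) ranked 2296 and 2589.

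**Figure D2:**
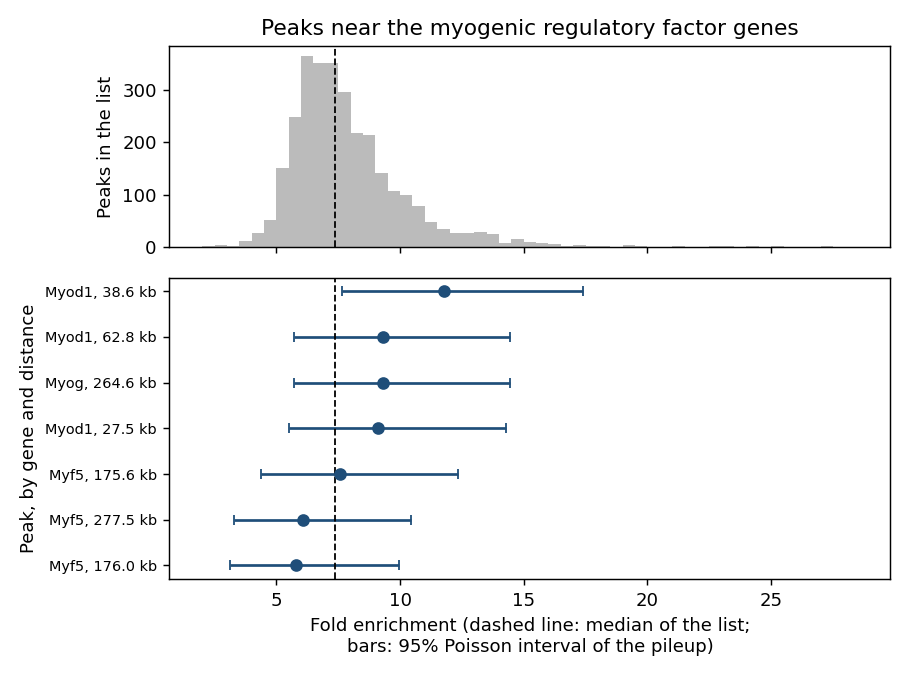
Above, the number of peaks in the list by fold enrichment (ratio to input); below, the 7 peaks by gene and distance in kb, with 95% Poisson intervals of the pileup (Myf5 peaks are those of Myf6 as well). The interval of the strongest Myod1 peak, from 7.64, is the only one of the 7 that lies above the list's median of 7.35, drawn as a dashed line.

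Few ChIP fragments stood behind each value. Pileups ran from 11 to 23 fragments, against 15 at the median peak. At 5 of the 7 peaks the local background corresponded to 1.89 to 2.06 unscaled input fragments per 172 bp fragment length. At the middle and farthest Myod1 peaks and the Myog peak the value was 2, the value that 2 input fragments within 1 fragment length give. At the Ptprq peaks it was 1.89 and 2.06. These are rates and not counts, since the caller also averages input over 1000 and 10000 bp. How many input fragments lay behind these rates is not given. The remaining 2 of the 7 peaks were the nearest Myod1 peak and the Gm29674 peak. Their background was at its floor of 0.977 scaled fragments, as in 44.1% of the list. The local input there is known only to be no higher. No peak of the list rested on fewer than 9 fragments, the same as on that floor. Absence of a peak at an enhancer window is therefore absence from this list at this depth and not absence of binding.

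None of the 7 summits lay within 1000 bp of the end of a protein-coding gene, against 29.1% of the 2975 peaks on assembled chromosomes. Beyond 10 kb from such an end were 5 of the 7, against 53.4% of the list. Inside a protein-coding gene were 3, the 2 in Ptprq and the 1 in Mgat4e, against 49.5%.

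Set beside all protein-coding genes, the distances of Myf5, Myf6 and Myog were ordinary. The distance from a gene to its nearest summit had a median of 223.1 kb over 21517 genes, with quartiles of 65.5 and 610.2 kb. Myod1, at 27.5 kb, was nearer to a summit than 84.0% of genes. Myf6 at 167.8 kb was nearer than 57.1% and Myf5 at 175.6 kb nearer than 55.9%. Myog, at 264.6 kb, was nearer than 45.6%, so it lay on the far side of the median. In order, the members ran from Myod1 through Myf6 and Myf5 to Myog. These distances have no replicate error, and Myf6 and Myf5 differ only by their own positions, since the same peak is nearest to both.

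**Figure D3:**
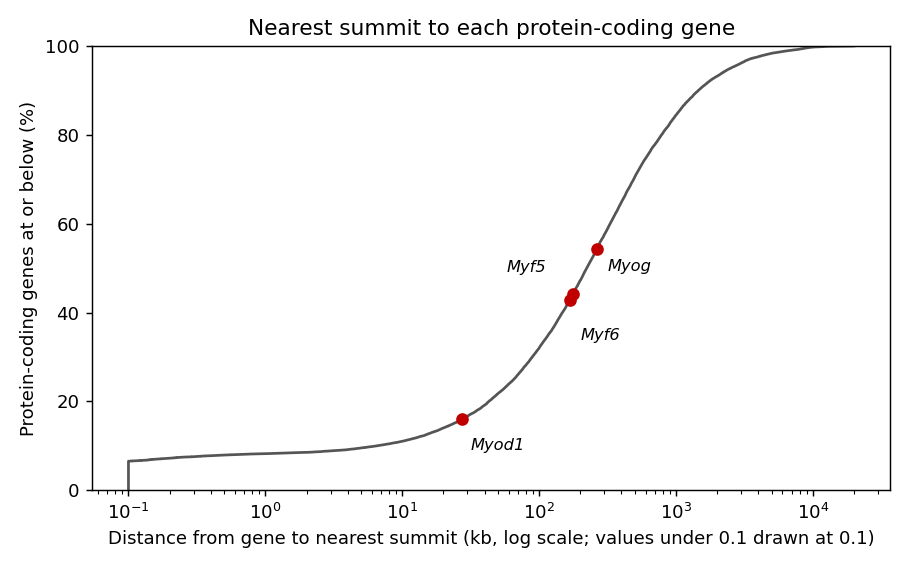
Share of protein-coding genes (vertical axis, %) whose nearest summit lies at or below a given distance (horizontal axis, kb, log scale), with the 4 myogenic regulatory factors as points. Myod1 lies low on the curve at 27.5 kb, and Myf6, Myf5 and Myog lie close to its middle.

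By window size, Myod1 had 0 summits within 10 kb, 2 within 50 kb and 3 from 100 kb up to 500 kb. At least 1 summit was found for 10.9% of all protein-coding genes within 10 kb, 21.5% within 50 kb, 31.6% within 100 kb, 46.7% within 200 kb, 56.9% within 300 kb and 69.6% within 500 kb. Myod1 was thus among the 4.89% of genes with 2 or more within 50 kb. Myf5 and Myf6 had 0 within 100 kb, 2 within 200 kb and 3 within 300 and 500 kb. Their 3 summits within 300 kb, like those of Myod1, were matched or exceeded by 15.3% of genes. Myog had 0 within 200 kb, 1 within 300 kb and 3 within 500 kb, where 28.3% of genes had at least as many.

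**Figure D4:**
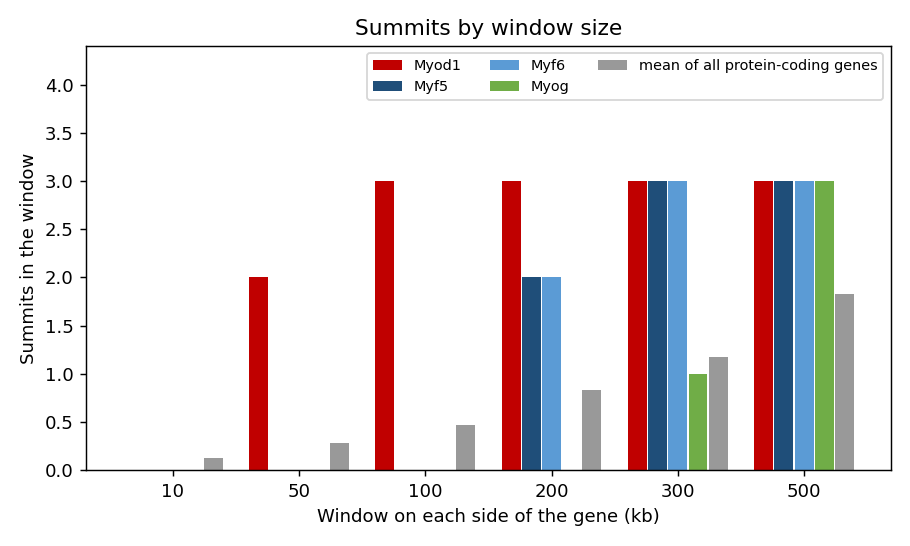
Number of summits (vertical axis) inside each gene or within the stated distance of it on either side (horizontal axis, kb), for the 4 myogenic regulatory factors and as the mean of all protein-coding genes (grey). Myod1 reaches 3 summits at 100 kb, Myf5 and Myf6 at 300 kb and Myog at 500 kb, while the mean of all genes is 1.17 at 300 kb.

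Genes that act with or upon the myogenic regulatory factors were counted in the same way, with a gene taken as having a peak when a summit lay inside it or within 50 kb. Of 72 such genes in 5 lists, 23 had a peak (31.9%), beside 21.5% of all protein-coding genes. In 10 of the 23 the strongest of these peaks was nearest to the end of another gene, within 1000 bp of it in 7. Such a peak cannot be credited to either gene from position alone. A long gene offers more room for a summit, and the lists were not matched to all genes for gene length. Among the genes with a peak, Tcf12, Eya4, Gli2 and Hdac4 are long and held a summit inside.

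Among dimer partners and MEF2 cofactors, 1 of 7 had a peak. This was Tcf12, the gene of the E protein HEB, at 8.33-fold (4.97 to 13.2). Its strongest peak was 17.8 kb outside the gene and nearest to Cgnl1. A weaker one, at 7.27-fold (4.19 to 11.9), lay inside Tcf12, and the third, at 6.41-fold (3.70 to 10.5), was 21.5 kb outside it. The E protein genes Tcf3 and Tcf4 and all 4 Mef2 genes had none, and their nearest summits ran from 59963 bp for Mef2d to 1950 kb for Mef2a. The median distance in the list was 251.1 kb.

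Upstream regulators had a peak at 8 of 19 genes (42.1%), with a median distance to the nearest summit of 90.5 kb against 223.1 kb over all genes. Pax7 itself, the gene that carries the knock-in, led with 14.7-fold (9.92 to 21.0) inside the gene. Lbx1, a homeobox gene of migrating limb muscle precursors, and Gli2, a transcription factor of Hedgehog signalling, each reached 8.60-fold (5.13 to 13.6) inside the gene. The other 5 were Six2, Six4, Six5, Eya4 and Dmrt2, from 4.69-fold for Six4 to 8.09-fold for Six2. The strongest peak within reach of Six5 was nearest to Fbxo46. Pax3 and Pitx3 had none within 50 kb. Six4 and Six2 belong to the family of homeobox factors that bind Myod1 and Myog control regions.

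Inhibitors of the factors had a peak at 3 of 11 genes. Msc, which encodes the repressor musculin, reached 10.3-fold (6.48 to 15.6) at 18.7 kb. Mdfic, related to the MyoD inhibitor I-mfa, reached 9.80-fold (6.10 to 15.04) inside the gene and had 5 summits within 50 kb. Id3, whose product sequesters E proteins, had its peak 73 bp from the gene, at 7.59-fold (4.38 to 12.4). Id1, Id2, Id4, Twist1, Twist2, Mdfi, Hes1 and Hey1 had none, and the median distance of the list was 280.6 kb, farther than over all genes.

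Of the chromatin cofactors, 6 of 12 had a peak. The highest were Hdac5, a histone deacetylase that restrains MEF2, at 14.7-fold (10.01 to 20.9) and 92 bp from the gene, and Ehmt2, a histone H3 lysine 9 methyltransferase gene, at 11.6-fold (7.48 to 17.4). Prmt5, an arginine methyltransferase gene, followed at 10.3-fold (6.48 to 15.6). The peak counted for Ehmt2 lay 16 bp from an end of Neu1 and that counted for Prmt5 134 bp from an end of Lrp10. That counted for Carm1 lay 36.5 kb from Carm1 and 120 bp from an end of Tmed1. Carm1 and the other two, Kdm1a and Hdac4, stood at 6.07 to 6.58-fold. With the more significant peaks alone, those at or above the median −log10 q, 3 of the 12 had one, beside 12.1% of all genes. Within 10 kb also 3 had one, beside 10.9% of all genes.

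Among the target genes of the factors, 5 of 23 had a peak within 50 kb (21.7%), close to the share of all genes. They were Mylpf at 16.1-fold (11.1 to 22.7), Chrnb1 at 9.61-fold (5.90 to 14.9), Cdh15 at 9.25-fold (5.75 to 14.2), Mymx at 7.59-fold (4.38 to 12.4) and Des at 6.64-fold (3.96 to 10.5). Mylpf encodes a fast myosin light chain, Chrnb1 a subunit of the acetylcholine receptor, Cdh15 M-cadherin, Mymx the fusion protein myomixer and Des desmin. All 5 of these strongest peaks were nearest to other genes, with Dctpp1, Tmem256, Slc35b2 and Dnpep within 261 bp of the peaks counted for Mylpf, Chrnb1, Mymx and Des. For Cdh15 the nearest gene end was one of Ankrd11, at 22.1 kb. That distance does not tell whether the summit lies inside Ankrd11 or outside it. Mylpf also held a weaker peak inside the gene, at 6.47-fold (3.66 to 10.7), whereas its strongest lay 46.6 kb away. Mybph, which lies 88.8 kb from Myog on its upstream side, had its nearest summit at 240.0 kb. Within 10 kb, 1 of the 23 target genes had a peak, and 4 of the 19 upstream regulators did, beside 10.9% of all genes.

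**Figure D5:**
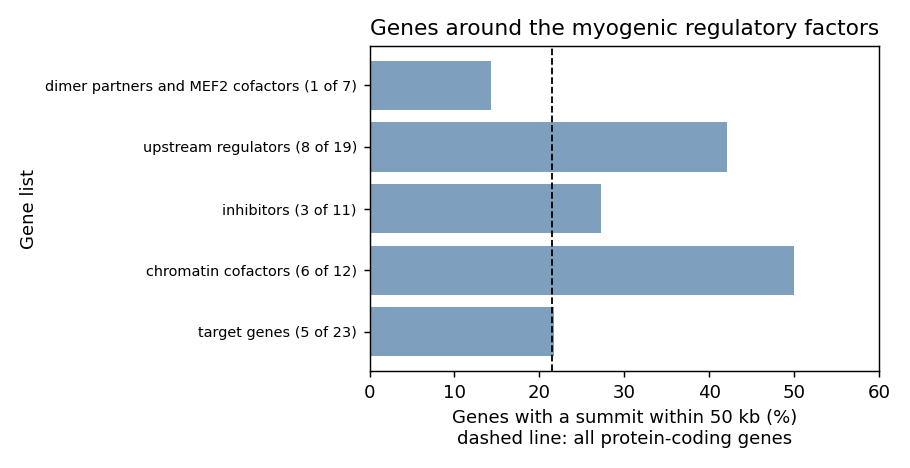
Share of genes in each list (horizontal axis, %) with a summit inside the gene or within 50 kb of it, with the counts beside the list names. Upstream regulators (42.1%) and chromatin cofactors (50.0%) stand above the 21.5% of all protein-coding genes, drawn as a dashed line, and target genes (21.7%) stand on it. The lists were chosen with earlier results known and were not matched for gene length.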

How the data were processed

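The submitters' processing notes name GRCm38, bcl2fastq 2.16, HISAT2 and MACS2 2.1.1. Per the file headers, narrow peaks were called with MACS 2.1.1.20160309, 1 ChIP library against 1 input, at a q-value limit of 0.01, with 1 tag kept per position and a fragment length of 172 bp. The deposited pileup is a coverage signal of ChIP fragments over the summit. Fold enrichment was deposited as the ratio of that pileup to the scaled local input, with 1 added to each. Where local input was below the genome-wide average, that average, the floor of 0.977, took its place. Significance was deposited as −log10 of the caller's p-value and q-value.

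From these, background and Poisson intervals were computed (Python 3.11.15, scipy 1.17.1), with unscaled input from the depth factor of 0.5199. Genes came from RefSeq GRCm38.p6, leaving out 348 on scaffolds or patches. Distances run from the gene span to the summit. The distance and count code was tested on simulated data. Members, lists and windows were chosen with earlier results of these data known. Named genes were the 4 members, genes between, holding or nearest to a member's summit, and up to 3 per list by fold (all where 5 or fewer had a peak). Others were named for context, and some genes are not reported here. Alternatives changed peaks, windows, distances and overlap.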

Additional observations from a re-analysis of the deposited data

How the results depend on the processing

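The 3 Myod1 peaks were all kept with the more significant peaks alone (−log10 q no lower than the list's median). The other alternatives were windows of 200 and 500 kb, any overlap, and the top 1% by pileup left out. They also gave 3, but could not have changed this count. The summits lay within 62.8 kb of Myod1, the next were 658.5 and 671.4 kb away, and none was in the top 1% by pileup. With the more significant peaks, 1 peak was counted for Myf5 and 1 for Myf6, where 37.7% of all genes had one within 300 kb, and the chromatin cofactors with a peak fell to 3, while 12.1% of all genes then had a peak within 50 kb. For Myog a window of 200 kb held 0 peaks and a window of 500 kb held 3. Measured from the start site, the nearest summit was 176.4 kb from Myf5 and 267.1 kb from Myog. Windows 2 kb wider on each side gave 1 of the 8 known elements a summit, the Myod1 core enhancer. Within 10 kb, peaks were counted at 4 upstream regulators, 3 chromatin cofactors and 1 target gene, and within 100 kb at 2 dimer partners and MEF2 cofactors and 9 target genes, where 31.6% of all genes had one. Searching only the upstream side of Myod1 and Myf6, an alternative chosen after seeing the data, gave 0 elements. This was fixed in advance, because the windows on both sides were already empty. No paired analysis was possible because each group has 1 library and the result comes from no test. With 1 library per group none could be left out. Protein identity between the 4 factors was not run.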
